A study of Homo sapiens with 3 samples.

Results

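The regions described here are the ChIP-seq peaks of Spindlin1 and C11orf84 at both ends of chromosome 16 in U2OS, a human osteosarcoma cell line. A peak belonged to the short arm end when its summit lay below 5 Mb of hg19, and to the long arm end when it lay at 85 Mb or beyond. This gave 5493 peaks at the short arm end (2648 of Spindlin1 and 2845 of C11orf84) and 5436 at the long arm end (2620 and 2816). Together these were 10929 of the 330935 peaks that both lists held on chromosomes 1 to 22 and X. The ends were selected on the number of peaks per Mb in these same lists, so that number is a description here and was not tested.

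Cells were untreated and fixed with 1% formaldehyde for 10 min. The study asked where each protein lies in the genome, with 1 library for Spindlin1, 1 for C11orf84 and 1 Input library without antibody, of which no file was used here. Since each antibody has 1 library, nothing can be checked against a replicate, no p-value is given, and 95% intervals cover counting error alone. They take each peak as independent, which neighbouring peaks are not, so they are likely too narrow.

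Spindlin1 is a chromatin reader whose Tudor-like domains bind methylated tails of histone H3, among them the trimethylated lysine that marks active promoters. C11orf84, also called SPINDOC, is a protein that binds Spindlin1. The outer parts of many human chromosome arms are rich in genes and in CpG dinucleotides. On chromosome 16 the short arm end carries the alpha-globin genes, which encode the alpha-like chains of haemoglobin and are transcribed in red cell precursors, a lineage to which U2OS does not belong. No expression was measured here, and no sequence or annotation of hg19 was used, so peaks are given by position and were not assigned to genes.

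Most chromosome 16 peaks lay in these ends. They held 5268 of 9281 Spindlin1 peaks (56.8%) and 5661 of 10438 C11orf84 peaks (54.2%), in 10.1 Mb measured from each inner border to the outermost summit. The short arm end had 539 Spindlin1 and 579 C11orf84 peaks per Mb, and the long arm end had 509 and 547. Between 5 and 85 Mb, a stretch that includes the peak-free centromeric region, there were 50.2 and 59.7 per Mb. Spindlin1 peaks covered 19.6% of the short arm end and 17.3% of the long arm end, and C11orf84 peaks covered 25.1% and 22%. In the rest of the chromosome they covered 1.41% and 1.85%.

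The 2 ends were nearly equal in number of peaks. The ratio of the short arm end to the long arm end was 1.01 for Spindlin1 and 1.01 for C11orf84. Per Mb it was 1.06 in both lists, since the short arm end measured 4.92 Mb to its outermost summit and the long arm end 5.15 Mb. That small excess depended on where the ends were set to stop. In the outermost 2 Mb the density ratio was 1.13 and 1.15, and in the outermost 10 Mb it was 0.907 and 0.886. The balance between the proteins was alike as well, with 0.931 Spindlin1 peaks per C11orf84 peak at the short arm end (0.882 to 0.982) and 0.930 at the long arm end (0.882 to 0.982). In the rest of chromosome 16 this was 0.840 (0.805 to 0.876).

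Within each end the peaks followed a different layout. At the short arm end they were densest in the outer part, though not at the very tip. The outermost window of 100 kb held 1 peak of each list, and the window from 0.2 to 0.3 Mb held 18 and 29. The first 1.6 Mb held 1232 Spindlin1 and 1238 C11orf84 peaks, or 770 and 774 per Mb. From 1.6 to 3.2 Mb there were 531 and 583 per Mb, and from 3.2 to 4.3 Mb 220 and 274. From 4.3 to 5 Mb there were 464 and 534 per Mb, and past the border, from 5 to 8 Mb, 26.3 and 27.3. These stretches were chosen after the counts had been seen.

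The long arm end had a dense block on either side of a thin one. From 85 to 86 Mb there were 588 Spindlin1 and 657 C11orf84 peaks. The next 1 Mb held 252 and 296, and the one from 87 to 88 Mb held 400 and 444. The outer block from 88 to 90 Mb held 1296 and 1328 peaks, or 648 and 664 per Mb. Peaks thinned out less abruptly at the inner border of the long arm end than at that of the short arm end. Just inside and just outside 85 Mb, 1 Mb held 588 and 261 Spindlin1 peaks and 657 and 315 C11orf84 peaks. Just inside and just outside 5 Mb it held 398 and 58 Spindlin1 peaks and 458 and 61 C11orf84 peaks.

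**Figure D1:**
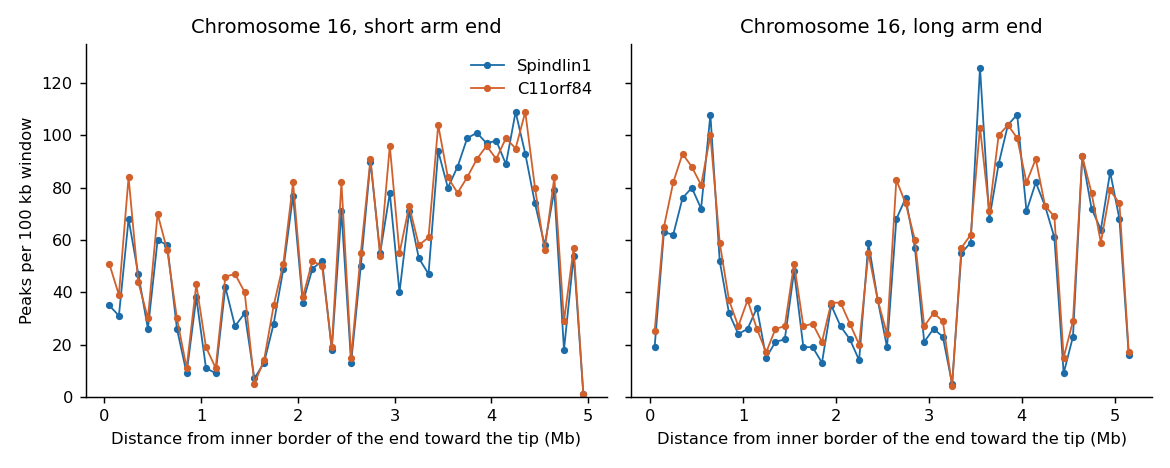
Peaks of Spindlin1 (blue) and C11orf84 (orange) in windows of 100 kb (vertical axis) against distance from the inner border of each end toward the chromosome tip, in Mb (horizontal axis). Both lists run closely together, with up to 109 peaks per window of either list at the short arm end and up to 126 Spindlin1 and 104 C11orf84 peaks at the long arm end.

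Both proteins filled the same windows. The fullest window of 100 kb at the short arm end was 0.7 to 0.8 Mb for Spindlin1 (109 Spindlin1 and 95 C11orf84 peaks) and 0.6 to 0.7 Mb for C11orf84 (93 and 109). At the long arm end the fullest were 88.5 to 88.6 Mb for Spindlin1 (126 and 103) and 88.8 to 88.9 Mb for C11orf84 (104 and 104). Leaving out the window at the tip of the short arm, the emptiest were 3.4 to 3.5 Mb (7 and 5) and 88.2 to 88.3 Mb (5 and 4). Window by window, the Pearson correlation between the lists was 0.966 over 50 windows of the short arm end and 0.974 over 52 of the long arm end. Windows of 1 library share its depth and neighbour each other, so this is a description.

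C11orf84 had more peaks than Spindlin1 in most windows, in 37 of 50 at the short arm end and in 39 of 52 at the long arm end. Spindlin1 had more in 12 windows of the short arm end and in 9 of the long arm end. Those of the long arm end included dense ones, such as 88.5 to 88.6 Mb (126 and 103) and 88.9 to 89 Mb (108 and 99). Other dense ones there held more C11orf84 peaks, such as 88.7 to 88.8 Mb (89 and 100). By number of peaks, the dense core of the short arm end also held more of Spindlin1. From 0.7 to 1.4 Mb there were 681 Spindlin1 and 634 C11orf84 peaks, a stretch chosen after its counts were seen. Its window from 0.8 to 0.9 Mb still held more C11orf84 peaks (89 and 99). C11orf84 peaks were wider in this core, with a median of 406 bp against 321 bp, and covered more bases than Spindlin1 in each of its windows. Among windows with at least 20 peaks in either list, the ratio of Spindlin1 to C11orf84 peaks ran from 0.574 at 3.6 to 3.7 Mb (27 and 47 peaks) to 1.18 at 1.2 to 1.3 Mb (99 and 84) at the short arm end. At the long arm end it ran from 0.619 at 86.8 to 86.9 Mb (13 and 21) to 1.31 at 86.1 to 86.2 Mb (34 and 26).

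Peaks stood close together at both ends. This is a description, since ends selected on peaks per Mb must hold short distances between peaks. The median distance from a Spindlin1 peak to the next was 475 bp at the short arm end and 549 bp at the long arm end, and for C11orf84 it was 382 bp and 471 bp. In the rest of chromosome 16 the medians were 2391 bp for Spindlin1 and 1901 bp for C11orf84. Stretches of at least 20 kb without a peak of either list numbered 12 at the short arm end, 13 at the long arm end and 718 in the rest. These are counts and not rates. The short arm end measured 4.92 Mb and the long arm end 5.15 Mb to their outermost summits, whereas the rest was many times longer. The longest such stretch was 61.6 kb at the short arm end (chr16:2661676-2723228) and 59.9 kb at the long arm end (chr16:88258365-88318254). For Spindlin1 alone the longest gap of the short arm end was 84.2 kb at chr16:2391250-2475435, and that of the long arm end was 80.4 kb at chr16:88237861-88318285.

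Around 0.2 Mb, where the alpha-globin locus lies, a dense run of peaks gave way to a thinner stretch. Between 0.1 and 0.3 Mb there were 72 Spindlin1 and 86 C11orf84 peaks. Of these, 49 and 46 had their summits in the 52 kb from 100 to 152 kb, which is 9.42 and 8.85 peaks per 10 kb. Over the next 148 kb there were 23 and 40, or 1.55 and 2.70 per 10 kb. The limits of these stretches were set after the peaks had been seen. Gene order was taken from RefSeq's annotation of GRCh38.p14, a later build whose coordinates were not used. Genes around the locus, from the tip, are POLR3K, SNRNP25, RHBDF1, MPG, NPRL3, HBZ, HBM, HBA2, HBA1, HBQ1, LUC7L, FAM234A, RGS11, ARHGDIG, PDIA2 and AXIN1. Which of them lie between 0.1 and 0.3 Mb of hg19 was not determined. HBZ is the embryonic zeta-globin gene, HBA2 and HBA1 are the adult alpha-globin genes, and introns of NPRL3 are known to contain their distal enhancers.

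In the dense run most peaks were found in both lists. There 41 of 49 Spindlin1 peaks (83.7%, 70.3 to 92.7) and 41 of 46 C11orf84 peaks (89.1%, 76.4 to 96.4) overlapped the other list. From 152 to 300 kb, 16 of 23 Spindlin1 peaks (69.6%, 47.1 to 86.8) but 15 of 40 C11orf84 peaks (37.5%, 22.7 to 54.2) did so. Unshared C11orf84 peaks lay in every part of it. From 152 to 210 kb there were 6 Spindlin1 and 12 C11orf84 peaks with 2 of each shared. Between 210 and 240 kb there were 8 and 18, with 7 and 8 shared, and between 240 and 300 kb 9 and 10, with 7 and 5 shared.

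Peaks around the locus were as shallow as those of the whole short arm end. Depth is counted here as the fragments over a peak's summit, recovered from the authors' fold and p-value. Spindlin1 peaks between 0.1 and 0.3 Mb had 8 to 19 fragments (median 11) and folds of 4.57 to 8.21. C11orf84 peaks had 7 to 23 fragments (median 12) and folds of 3.19 to 11.8. One of the regions tied for the highest C11orf84 fold of the whole short arm end lay in the dense run, at chr16:115816-116131, with a Spindlin1 fold of 7.18 at 13 fragments and a C11orf84 fold of 11.8 at 23. Another of the 5 highest was chr16:129386-129756, with 6.67 at 12 fragments for Spindlin1 and 10.8 at 21 for C11orf84. From 152 to 300 kb the highest folds were 7.20 for Spindlin1 and 9.07 for C11orf84.

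**Figure D2:**
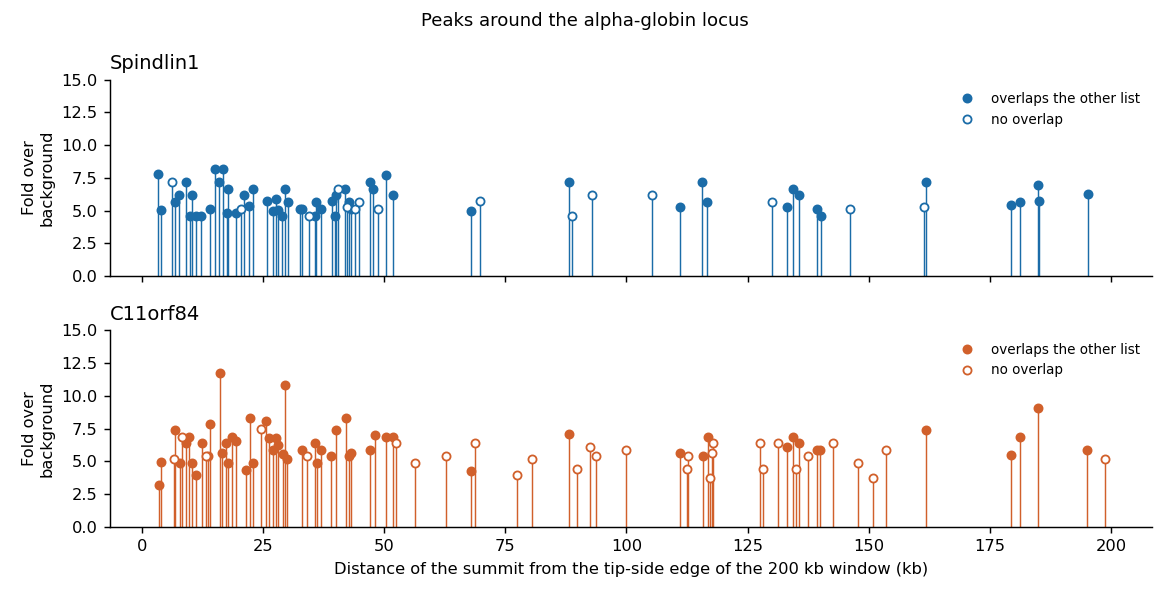
Authors' fold over local background (vertical axis) of each Spindlin1 peak (upper panel) and C11orf84 peak (lower panel) between 0.1 and 0.3 Mb, by distance of its summit from the tip-side edge of that window in kb (horizontal axis); filled points overlap a peak of the other list. The first 52 kb hold 49 and 46 peaks, and open points are frequent in the C11orf84 panel beyond it, where 15 of 40 peaks overlap Spindlin1.

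Both ends had the same median depth in each list. Median depth was 11 fragments for Spindlin1 at the short arm end and 11 at the long arm end (interquartile range 10 to 13 at both). For C11orf84 it was 12 at each, with quartiles of 10 and 14 at the short arm end and 11 and 15 at the long arm end. At least 15 fragments were reached by 395 of 2648 Spindlin1 peaks at the short arm end (14.9%, 13.6 to 16.3) and by 400 of 2620 at the long arm end (15.3%, 13.9 to 16.7), against 21% of all Spindlin1 peaks. For C11orf84 these were 626 of 2845 (22%, 20.5 to 23.6) and 706 of 2816 (25.1%, 23.5 to 26.7), against 26.2% of all. The short arm end minus the long arm end was -0.35 percentage points for Spindlin1 (-2.29 to 1.58) and -3.07 for C11orf84 (-5.27 to -0.857). In the outermost 2 Mb these differences were -4.62 (-7.34 to -1.92) and -6.29 (-9.45 to -3.12). Both ends together minus the rest of chromosome 16 came to 0.912 points for Spindlin1 (-0.546 to 2.35) and 5.05 for C11orf84 (3.48 to 6.60). At least 20 fragments were seen at 29 Spindlin1 peaks of the short arm end and 47 of the long arm end, against 4.43% of all, and at 72 and 81 C11orf84 peaks, against 6.13% of all. Here both ends minus the rest of chromosome 16 came to -1.57 points for Spindlin1 (-2.22 to -0.968) and -0.50 for C11orf84 (-1.17 to 0.149). The authors' −log10 q was 10 or more at 252 (9.52%) and 278 (10.6%) Spindlin1 peaks, against 11.8% of all, and at 441 (15.5%) and 511 (18.1%) C11orf84 peaks, against 15.7% of all. By this measure both ends exceeded the rest of chromosome 16 by 2.36 points for Spindlin1 (1.19 to 3.51) and by 6.29 for C11orf84 (4.98 to 7.59).

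Of the 2 ends, the long arm end held the peak of highest fold in each list. A fold of at least 10 was found at 13 Spindlin1 peaks of the short arm end (0.491%, 0.262 to 0.838) and 30 of the long arm end (1.15%, 0.774 to 1.63), against 1.32% of all Spindlin1 peaks. For C11orf84 it was 27 (0.949%, 0.626 to 1.38) and 35 (1.24%, 0.867 to 1.72), against 1.5% of all. The short arm end minus the long arm end was -0.65 percentage points for Spindlin1 (-1.18 to -0.167) and -0.29 for C11orf84 (-0.858 to 0.258), so the C11orf84 difference lay within its counting error. Though below the share of all peaks, both ends together exceeded the rest of chromosome 16. The difference was 0.343 points for Spindlin1 (0.00497 to 0.672) and 0.697 for C11orf84 (0.370 to 1.04). Among the 1000 Spindlin1 peaks of highest fold in the genome, 9 lay in the short arm end and 14 in the long arm end, which is 2.3%, whereas the ends held 3.43% of all Spindlin1 peaks. For C11orf84 it was 4 and 8 of 1000, or 1.2% against 3.19%. Of the 10000 highest they held 2.76% for Spindlin1 and 3.36% for C11orf84, so the C11orf84 shortfall was seen among the 1000 highest and not among the 10000 highest. Equal folds were given successive ranks, as for long arm end Spindlin1 peaks of fold 8.21 at ranks 10423 and 10470. The shares among the highest can therefore depend on the order of ties, which was not tested.

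At the short arm end the leading Spindlin1 peaks were chr16:983101-983299 and chr16:1323510-1324366, both with a fold of 11.8 at 22 fragments. The C11orf84 peaks there had folds of 6.38 at 12 fragments and 5.89 at 11. Next came chr16:2021685-2022303 with a Spindlin1 fold of 11.6 at 28 fragments, over a background 1.57 times the lowest of its list, and a C11orf84 fold of 5.82 at 18 fragments, over a background 2.18 times the lowest. Besides those named in the dense run from 100 to 152 kb, the leading C11orf84 regions began with chr16:623238-623589, tied for the highest. It had a Spindlin1 fold of 6.16 and a C11orf84 fold of 11.8. The others were chr16:850991-852434, with 5.64 and 11.3, and chr16:3194980-3196010, with 6.92 and 11.3. Since each region was named for a high fold in one list, the lower fold in the other is a description and was not tested.

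At the long arm end the highest folds of the 2 lists lay in the same window of 100 kb, from 89.6 to 89.7 Mb, at different peaks. Spindlin1 reached 14.3 at 28 fragments at chr16:89639843-89640061, rank 19 of its list, where C11orf84 had 5.85 at 12 fragments. At chr16:89695635-89696343, rank 4 of the C11orf84 list, Spindlin1 had 6.16 at 11 fragments and C11orf84 16.7 at 33. The summits were 57 bp apart at the first and 21 bp at the second. Among regions where a single peak of one list overlapped a single peak of the other, these had the most unequal depths of the long arm end in favour of Spindlin1 and of C11orf84. They were singled out after their values were seen.

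Some other leading peaks of the long arm end were high in both lists. At chr16:87812493-87813110 the Spindlin1 fold was 12.5 at 25 fragments and the C11orf84 fold 8.96 at 18. Close to the tip, at chr16:90148387-90148775, the folds were 11.3 at 23 fragments and 10.4 at 22. At chr16:90024991-90025259, where C11orf84 had its second highest fold of this end, Spindlin1 had 10.1 at 20 fragments and C11orf84 12.7 at 26, with both summits at the same base.

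Across all single pairs the depths of the 2 proteins were only loosely related. The short arm end had 1257 such pairs and the long arm end 1453. The median ratio of Spindlin1 to C11orf84 fragments was 0.929 (interquartile range 0.786 to 1.11) at the short arm end and 0.917 (0.778 to 1.09) at the long arm end. Spearman correlations were 0.301 and 0.331 over peaks, and in the rest of chromosome 16, over 2172 pairs, 0.434. These pairs share libraries and span a narrow range of depth. Spindlin1 was at least 2 times as deep in 7 pairs of the short arm end and 4 of the long arm end, and C11orf84 in 15 and 17.

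**Figure D3:**
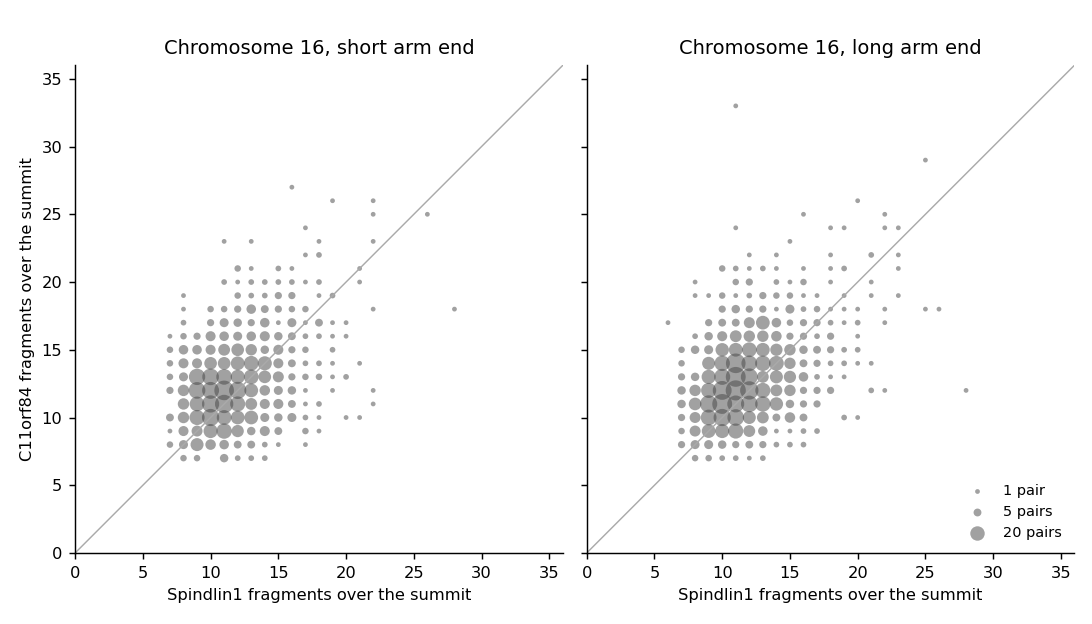
Fragments over the summit for Spindlin1 (horizontal axis) and C11orf84 (vertical axis) at regions where 1 peak of each list overlapped, with point size by number of pairs and a line of equal depth. Most of the 1257 and 1453 pairs sit below 20 fragments in both, and at the long arm end a region with 11 and 33 fragments and one with 28 and 12 stand far from the line.

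Background was low at both ends. Each list has a lowest background, its floor, of 0.949 fragments in the Spindlin1 list and 1.04 in that of C11orf84. At the short arm end 67.0% of Spindlin1 peaks (65.2 to 68.8) and 65.1% of C11orf84 peaks (63.3 to 66.8) stood at the floor. At the long arm end these were 63.6% (61.8 to 65.5) and 60.7% (58.9 to 62.5), against 48.2% and 49.3% of all peaks. Raised backgrounds, at 2 times the floor or more, were found at 4.98% and 5.52% of short arm end peaks and at 4.47% and 4.94% of long arm end peaks, against 9.07% and 9.19% of all. The thin stretch from 86 to 87 Mb had fewer peaks at the floor, 44.4% and 48.6%. Control coverage lower than the floor is hidden in these values.

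Peaks of the 2 proteins coincided more often at the ends than in the rest of the chromosome. At the short arm end 2245 Spindlin1 peaks (84.8%, 83.4 to 86.1) overlapped a C11orf84 peak by at least 1 bp, and at the long arm end 2165 (82.6%, 81.1 to 84.1), against 69.7% of all Spindlin1 peaks. In the other direction 2104 C11orf84 peaks (74.0%, 72.3 to 75.6) and 2028 (72.0%, 70.3 to 73.7) overlapped Spindlin1, against 57.6% of all. In the rest of chromosome 16 these shares were 65.9% for Spindlin1 and 53.4% for C11orf84. Both ends together exceeded the rest of chromosome 16 by 17.9 percentage points for Spindlin1 (16.1 to 19.6) and by 19.6 for C11orf84 (17.8 to 21.4; Newcombe intervals). Coverage by the other list moved with this, being 25.1% and 22% for C11orf84 in the ends and 1.85% in the rest. The part of coverage in the overlap was not tested.

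The difference between the ends depended on what counted as overlap. With 1 bp the short arm end stood 2.15 percentage points above the long arm end for Spindlin1 (0.153 to 4.14) and 1.94 for C11orf84 (-0.376 to 4.25). With at least 50% of both intervals covered it stood at 44.6% against 49.6% for Spindlin1, a difference of -4.98 points, and at 41.5% against 46.2% for C11orf84, a difference of -4.62. With summits at most 200 bp apart the differences were -1.61 and -1.62 points. In bases the ends were alike, with 73.9% of the Spindlin1 territory shared at the short arm end and 74.4% at the long arm end, and 57.7% and 58.5% of the C11orf84 territory.

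Peaks of the short arm end were wider and more often met several peaks of the other list. Median width was 290 bp at the short arm end and 261 bp at the long arm end for Spindlin1, and 331 and 298 bp for C11orf84. In the rest of chromosome 16 it was 224 bp for Spindlin1 and 239 bp for C11orf84. Of Spindlin1 peaks, 316 (11.9%, 10.7 to 13.2) at the short arm end and 201 (7.67%, 6.68 to 8.76) at the long arm end overlapped 2 or more C11orf84 peaks, against 4.19% of all. Of C11orf84 peaks, 403 (14.2%, 12.9 to 15.5) and 286 (10.2%, 9.06 to 11.3) overlapped 2 or more Spindlin1 peaks, against 5.56% of all. For shared Spindlin1 peaks the median distance between the summits of both proteins was 104 bp at the short arm end and 75 bp at the long arm end.

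Deeper peaks were more often shared, and shallow ones were shared more often at the ends than elsewhere on the chromosome. Among Spindlin1 peaks of 8 fragments or fewer, 80% (74.6 to 84.7) were shared at the short arm end, 74.3% (68.1 to 79.9) at the long arm end and 49.6% (44.9 to 54.2) in the rest of chromosome 16. Among those of 13 to 15 fragments these were 90.8%, 86% and 74.9%, and at 20 or more 93.1%, 93.6% and 91.7%. C11orf84 peaks of 8 fragments or fewer were shared in 61.8% (54.7 to 68.5), 55.6% (47.3 to 63.6) and 29.7% (25.4 to 34.3). At 20 or more fragments the C11orf84 shares were 91.7%, 87.7% and 87.6%. The gap between ends and rest was wide among shallow peaks and small among the deepest. That deepest class held only 29 and 47 Spindlin1 peaks at the short and long arm ends (intervals 77.2 to 99.2 and 82.5 to 98.7). Coverage by the other list was also higher at the ends, and its part in this gap was not tested.

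**Figure D4:**
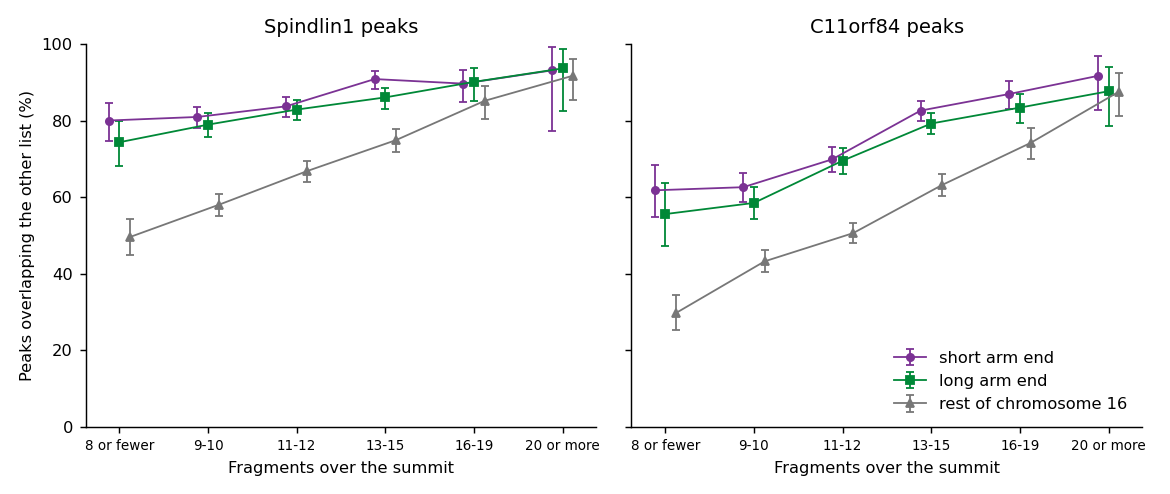
Share of Spindlin1 peaks (left) and C11orf84 peaks (right) that overlap the other list, in percent (vertical axis), by fragments over the summit (horizontal axis), at the short arm end, the long arm end and in the rest of chromosome 16; bars are exact 95% intervals for counting error. At 8 fragments or fewer the Spindlin1 shares are 80%, 74.3% and 49.6%, and at 20 or more they are 93.1%, 93.6% and 91.7%.

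Within the ends, sharing was higher in the densest stretches given above than in the thinnest. It reached 88.3% of Spindlin1 and 79.8% of C11orf84 peaks in the first 1.6 Mb, and 86.4% and 77.0% from 88 to 90 Mb. It was low in thin ones, at 71.5% and 57.1% from 3.2 to 4.3 Mb and 66.7% and 56.1% from 86 to 87 Mb. Median depth was 11 fragments for Spindlin1 and 12 for C11orf84 in all 4 stretches. Spindlin1 peaks had median widths of 303 and 288 bp in the dense stretches and 232 and 209 bp in the thin ones. Between these extremes the order did not hold. At 588 Spindlin1 peaks per Mb, 85 to 86 Mb had 81.6% shared, and at 464 per Mb, 4.3 to 5 Mb had 83.4%. Overlap by 1 bp is met more easily where the other list covers more bases. C11orf84 peaks covered 8.77% of 86 to 87 Mb and 31.6% of 88 to 89 Mb. The part of coverage in these shares was not tested.

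Peaks with no neighbour of the other list are given as a description, since ends selected for dense peaks must hold few of them. A Spindlin1 peak with no C11orf84 peak within 5 kb was found 14 times at the short arm end (0.529%, 0.289 to 0.885) and 17 times at the long arm end (0.649%, 0.378 to 1.04), against 8.36% of all. For C11orf84 it was 31 (1.09%) and 25 (0.888%), against 10.9% of all. The highest such Spindlin1 folds were 8.59 at 18 fragments at chr16:4147123-4147314 and 8.21 at 15 fragments at chr16:86890900-86891277. For C11orf84 they were 6.87 at 13 fragments at chr16:1654101-1654744 and 9.82 at 19 fragments at chr16:89296644-89296996. A missing peak means that none was called at this depth, not that the protein was absent.

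Wide peaks were found mainly in the C11orf84 list. At least 2 kb was reached by 1 Spindlin1 peak at each end, against 0.176% of all, and by 14 C11orf84 peaks at the short arm end (0.492%, 0.269 to 0.824) and 9 at the long arm end (0.320%, 0.146 to 0.606), against 0.311% of all. For C11orf84 both ends together exceeded the rest of chromosome 16 by 0.385 percentage points (0.218 to 0.589). The widest of both lists at the short arm end overlapped each other, at chr16:1139678-1141919 (2242 bp, Spindlin1) and chr16:1138677-1141709 (3033 bp, C11orf84), each at 17 fragments. A C11orf84 interval at chr16:1236287-1239277 spanned 5 Spindlin1 peaks. At the long arm end the widest Spindlin1 peak was chr16:88965904-88968042 (2139 bp), and the widest C11orf84 peak was chr16:89701982-89704928 (2947 bp), over a background 2.18 times the floor.

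Against 3 other crowded arm ends, taken as the outermost 5 Mb, the ends of chromosome 16 had fewer deep peaks and more peaks at the floor. Spindlin1 peaks of at least 15 fragments made up 14.9% and 15.3% of the short and long arm ends of chromosome 16. In the rest of chromosome 16 they made up 14.2% (13.1 to 15.3), so this low share was not particular to its ends. At the long arm end of chromosome 17 they made up 26.2% (24.7 to 27.8), at the short arm end of chromosome 7 44.7% (42.8 to 46.6) and at the long arm end of chromosome 20 36.8% (34.6 to 39.0). At the floor were 67.0% and 63.6% of Spindlin1 peaks on chromosome 16, against 53.8%, 43.2% and 50.4% at those ends. Spindlin1 peaks of at least 2 kb numbered 1 at each end of chromosome 16, against 8, 34 and 25. Overlap of Spindlin1 with C11orf84 peaks was 84.8% and 82.6% on chromosome 16, against 87.5%, 87.1% and 86% there. For C11orf84 peaks the overlap was 74.0% and 72.0% on chromosome 16, against 78.0%, 79.5% and 72.7%. Whether copy number differs between these ends was not measured.

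**Figure D5:**
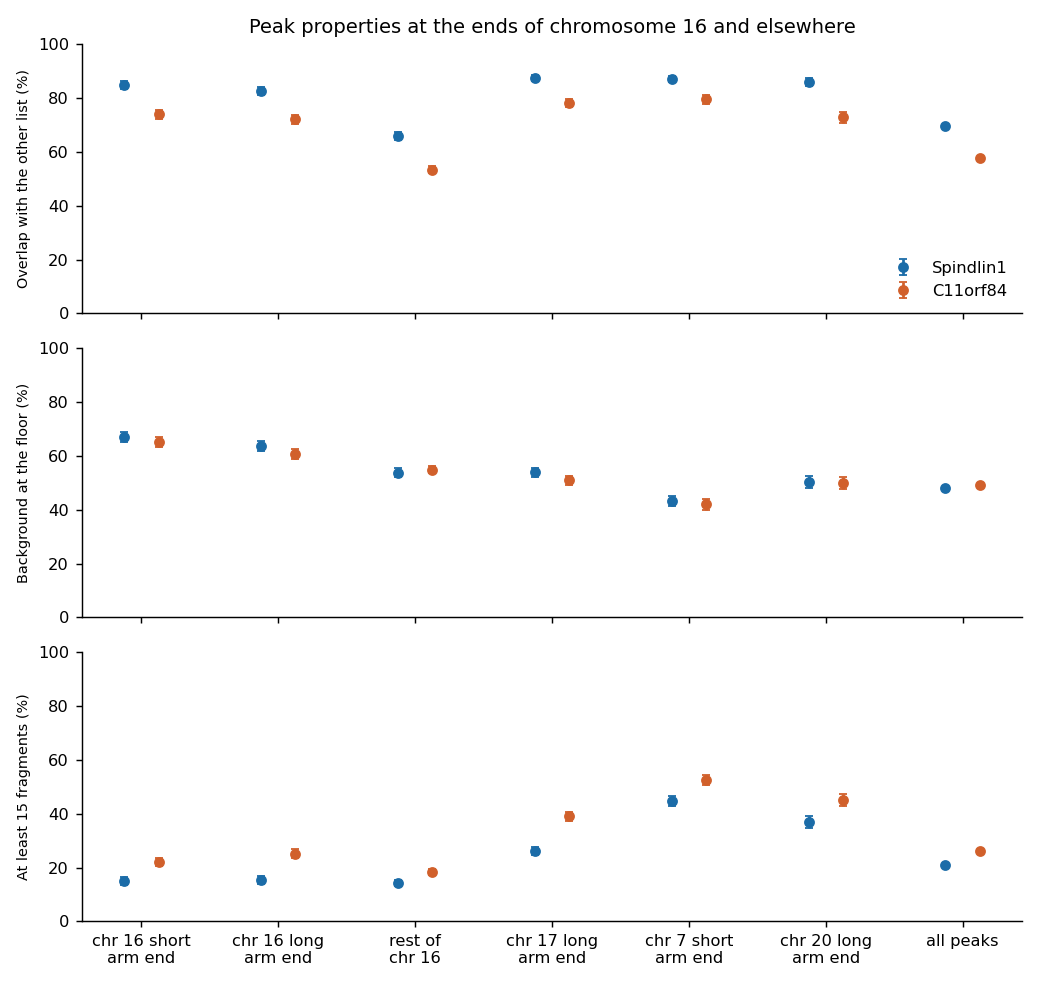
Share of peaks in percent (vertical axes) that overlap the other list, stand at the background floor or reach 15 fragments, for Spindlin1 (blue) and C11orf84 (orange), at both ends of chromosome 16, in its rest, at 3 other arm ends and over all peaks (horizontal axis); bars are exact 95% intervals for counting error. On chromosome 16 the ends have 67.0% and 63.6% of Spindlin1 peaks at the floor and 14.9% and 15.3% at 15 or more fragments.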

How the data were processed

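Alignment was with Bowtie 1.2.2 and the build was hg19, both per the submitters' processing notes. How peaks were called, at what threshold and against what control, is not given in the sources used here. The 2 deposited lists come from 1 library each. Positions are printed counting from 1. The fold of a peak is the authors' deposited ratio between its summit and a local background. The same lists of the authors also hold −log10 p and −log10 q values and a score, which restates the −log10 q and was not used.

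Summit depth k and background λ were recovered from 2 assumptions: that the fold is (k + 1)/(λ + 1), and that the p-value is a Poisson tail above k. A whole number k met both values within 0.001 in 100% of 153468 Spindlin1 and 177639 C11orf84 peaks, with 16 and 0 ambiguous. On data simulated from these same 2 assumptions, the search recovered 100% of 19238 peaks. This checks the search and not the assumptions. A region that met several peaks of the other list is given with the one of highest fold. The floor is the lowest background, met within 0.1%. Total read numbers are unknown. Shares carry exact Clopper-Pearson 95% intervals, differences of shares Newcombe intervals, and ratios of counts exact intervals from their binomial split. Chromosome Y was left out. No random placement was made.

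Single regions were named by rule: in each list and end the 5 of highest fold, the 2 widest and the 2 of highest fold with none of the other list within 5 kb, of which the text gives the leading ones, the fullest and emptiest windows of 100 kb, the longest peak-free stretch, and the peaks from 0.1 to 0.3 Mb. Members and lists were chosen with earlier results of these data known, and stretches, classes of depth and the 3 other arm ends after the counts had been seen. The work ran in Python 3.11.15 with matplotlib 3.10.9, pandas 2.3.3, SciPy 1.17.1 and NumPy 2.4.6.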

Additional observations from a re-analysis of the deposited data

How the results depend on the processing

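Differences and ratios set the short arm end against the long arm end. Requiring 50% of each interval to be covered, the difference in overlap was -4.98 percentage points for Spindlin1 and -4.62 for C11orf84, and with summits at most 200 bp apart it was -1.61 and -1.62. Keeping peaks whose −log10 q reached 10, the count ratio was 0.906 and 0.863, the density ratio 0.949 and 0.904, and the difference in overlap -4.0 and -1.8 points. All peaks of both lists then had 15 or more fragments. The q limit itself leaves out shallower peaks, so this difference of 0 was fixed in advance. At the floor alone, the C11orf84 count and density ratios were 1.08 and 1.13. In the outermost 2 Mb the count and density ratios were both 1.13 for Spindlin1 and both 1.15 for C11orf84. There the difference in raised background was -1.8 and -1.13 points, and that in peaks of at least 15 fragments -4.62 and -6.29. In the outermost 10 Mb both ratios were 0.907 for Spindlin1 and 0.886 for C11orf84. Peaks of at least 1 kb differed by 0.736 and 1.22 points. Of 56 recomputed comparisons between the ends, 29 stayed within the interval of the value reported and 20 moved out of it. The other 7 reversed a direction whose reported interval had excluded no difference. These were in the Spindlin1 overlap difference and in the density ratios of both lists. Why values moved or reversed was not tested. No paired analysis was possible because each antibody has 1 library. Few fragments per summit limit what a missing overlap can show.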
